A study of Mus musculus with 4 samples.

Results

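Plasma cells are the antibody-secreting end stage of the B cell lineage. This account follows 10 genes that mark them without encoding antibody chains: Sdc1, Prdm1, Mzb1, Tnfrsf17, Derl3, Eaf2, Fkbp11, Txndc5, Ell2 and Pim2. They were taken by symbol from a fixed list, and each matched a single row among the 55450 gene rows of the count tables. Of the 10, 9 passed the filter on low counts and were tested. Tnfrsf17 did not pass and is described by its reads.

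When a B cell becomes a plasma cell, the repressor Blimp-1 (Prdm1) shuts down the B cell programme, and IRF4 and XBP1 build up the secretory one. The endoplasmic reticulum (ER) grows to fold and export antibody, and the cell becomes dependent on survival signals such as those received by BCMA (Tnfrsf17). Mesenteric lymph nodes drain the gut and give rise to IgA-secreting plasma cells. Several of these genes are also used elsewhere: Prdm1 in T cells and dendritic cells, Mzb1 in B cells and plasmacytoid dendritic cells, Pim2 in many lymphocytes.

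The RNA came from mesenteric lymph nodes of wild-type C57BL/6J mice, 2 nodes pooled per sample, with no age or sex given in the labels. Cells were enriched on magnetic beads for CD11c, an integrin of dendritic cells and some other leukocytes. Each pool was split over a pair of wells, a control with water and an Ffar2 agonist at 10 µM, which the labels do not name further. After 6 h in culture, RNA was read by full-length, low-input sequencing, in 2 control and 2 agonist libraries, numbered 2 and 3 in both groups. Same-numbered libraries were taken to share a pool, called pool 2 and pool 3 here. Ffar2 is a receptor for short-chain fatty acids, and the series title links it to IL-27 from dendritic cells.

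Gene counts summed to between 43238375 and 59902172 reads per library. Pool 2 had Xist reads and no reads of the Y-linked gene Ddx3y, and pool 3 the reverse, so a difference between the pools cannot be told apart from one of sex. Itgax, the gene of CD11c, stood at 95.5 to 189 CPM (read counts scaled to a common library size by trimmed mean of M-values). The bead enrichment left other cells: summed levels were 949 to 1387 CPM for 17 B cell identity genes, 990 to 1575 CPM for 12 plasmacytoid dendritic cell markers, and 705 to 1430 CPM for 11 T cell markers. The 13 antibody genes summed to 953 to 2422 CPM. In bulk RNA, fewer cells of a type and less RNA per cell cannot be told apart.

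The levels of the plasma cell genes were low to moderate and wide in range. Per kilobase of merged exons, which allows genes to be compared, Pim2 had the highest mean level over the 4 libraries, 4.53 ± 3.43 CPM per kb (SD, n = 4). Txndc5 followed with 3.97 ± 0.374, Prdm1 with 3.54 ± 1.51, Ell2 with 2.11 ± 0.568, Mzb1 with 1.59 ± 0.565 and Derl3 with 1.36 ± 0.253 CPM per kb. The ranges over libraries of each pair of neighbours in this order overlapped. The level of Mzb1 can be too low, since 695 of its 1215 exonic bases are shared with a neighbouring gene on the same strand. Eaf2 with 0.536 ± 0.278 CPM per kb lay below Derl3 in every library. Sdc1 stood at 0.270 ± 0.126 CPM per kb. Tnfrsf17 and Fkbp11 were the lowest, at 0.0881 ± 0.133 and 0.0848 ± 0.0720 CPM per kb, and from Eaf2 down neighbours overlapped again. Among the 28600 genes with a read in any library, this placed Pim2 above 77.7% and Fkbp11 above 28.3% of genes.

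On this scale Igha and Jchain stood above all 10 genes in each library, except that Jchain lay below Pim2 in agonist replicate 2. Igha, the IgA constant region, had 148 and 61.3 CPM per kb in the control and 18.8 and 6.30 in the agonist libraries (pools 2 and 3). Jchain, which links IgA or IgM units into polymers, had 26.6 and 39.9 in the control and 8.60 and 10.3 in the agonist libraries. Irf4, which B cells, plasma cells and dendritic cells use, lay between 11.9 and 18.5 CPM per kb. Xbp1, the ER stress transcription factor of secretory cells, lay between 2.87 and 12.8.

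**Figure D1:**
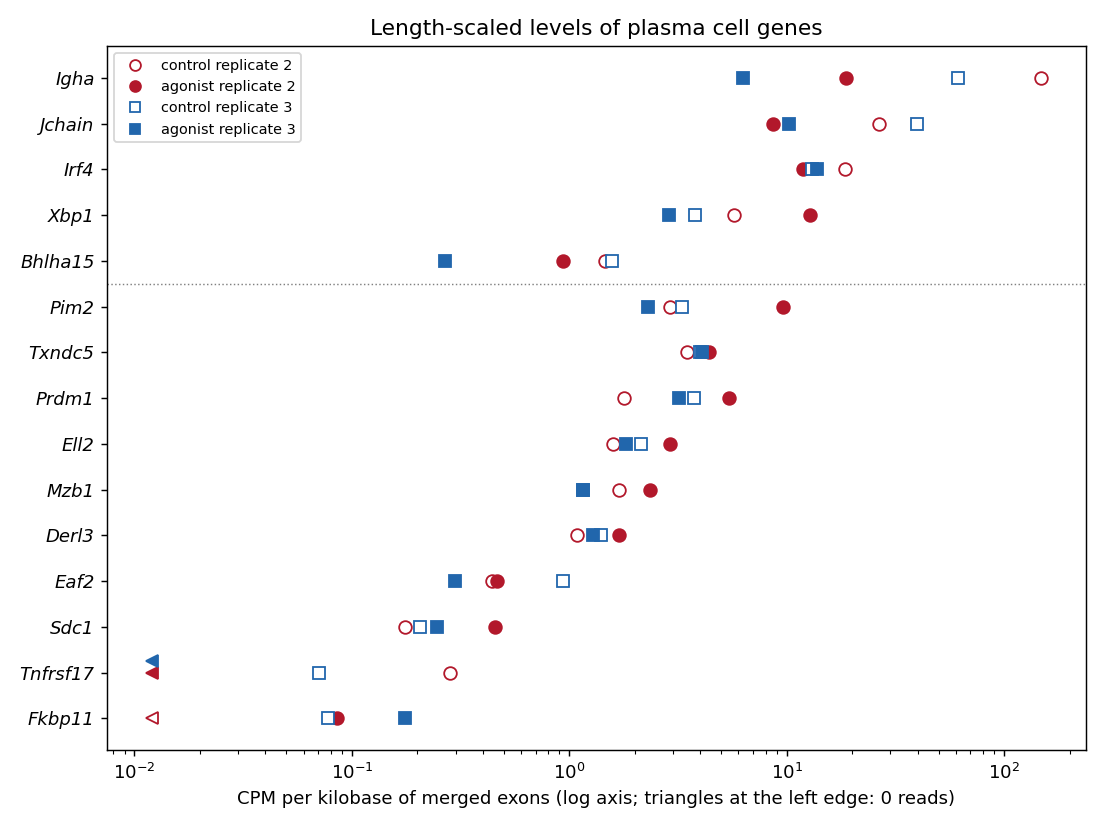
Length-scaled level of each gene (CPM per kilobase of merged exons, log axis) in the 4 libraries, with open symbols for control and filled symbols for agonist, circles for pool 2 and squares for pool 3, and triangles for 0 reads. Igha and Jchain lie to the right of most plasma cell genes, and Tnfrsf17 and Fkbp11 lie at the left edge.

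The agonist comparison called none of the plasma cell genes. The edgeR quasi-likelihood test gave 0 of the 9 tested genes an adjusted p under 0.05, and it called 0% of all 18297 tested genes. The share at an unadjusted p under 0.05 was also 0 of 9, against 0.639% of all tested genes higher and 0.94% lower. DESeq2 called 0 of the 9 and 0.0383% of all genes, and limma-voom called 0 of the 9 and 0% of all genes. In edgeR with a term for the pool (the block), 0 of the 9 were called and 0.00547% of all genes. At an unadjusted p under 0.05 the blocked fit had 0 of 9, against 1.69% of all tested genes higher and 1.84% lower. Every edgeR adjusted p of the 9 genes was 0.9999 without and 0.9998 with the block. The median fitted log2 change of the 9 was 0.34, against -0.05 over all tested genes. With 2 libraries per group the intervals below are wide.

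**Figure D2:**
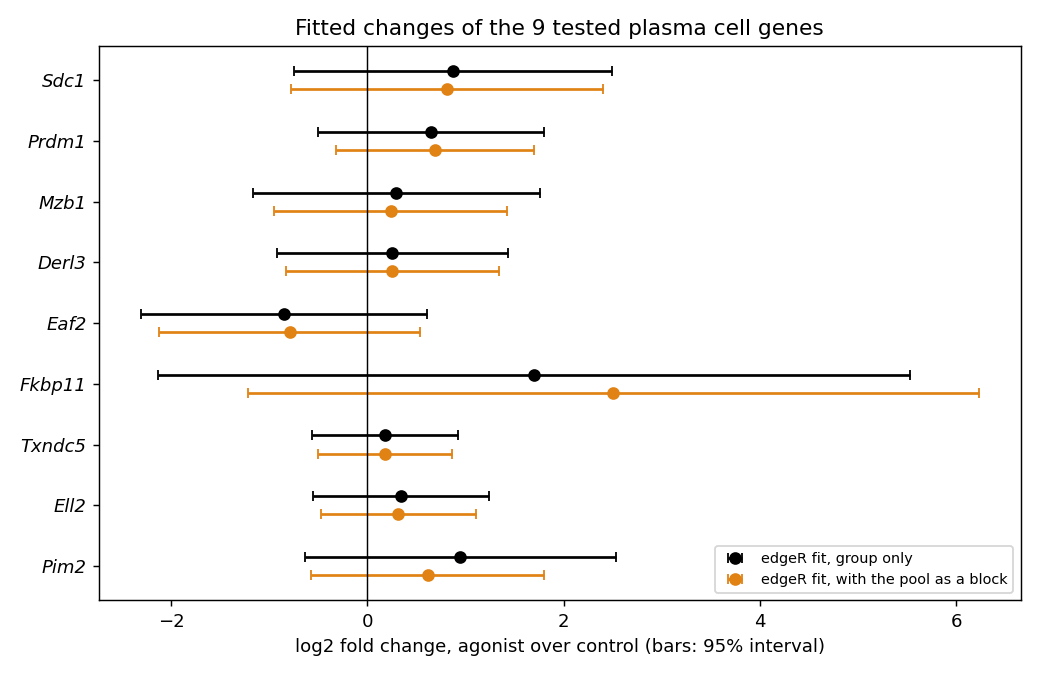
Log2 fold change of agonist over control for the 9 tested plasma cell genes in the edgeR fits, with 95% intervals, for the fit with group only and the fit with the pool as a block. All intervals include 0, and the widest are those of Fkbp11.

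The 2 pools gave different values, a difference that was not tested. In pool 2 all 9 tested genes were higher in the agonist well, against 43.6% of all tested genes, and 4 of them were over 2-fold higher, against 13.8%. None was over 2-fold lower there, against 8.85%. In pool 3, 4 of the 9 were higher, against 49.2% of all tested genes. There 1 of the 9, Fkbp11, was over 2-fold higher, against 5.67%, and 1, Eaf2, over 2-fold lower, against 9.55%. Of the 9, 4 were higher in both pools (21% of all tested genes) and 0 were lower in both (27.8%). A further 5 were higher in pool 2 and lower in pool 3 (22.5%), and 0 the other way round (28.1%). Tnfrsf17, which the filter removed, is outside these counts, with 10 and 3 control reads against 0 and 0 in the agonist wells. Fkbp11 is in them, with 0 and 11 control reads against 12 and 27, and passed the filter only with its agonist libraries counted. The median within-pool difference was 0.86 in pool 2 and -0.13 in pool 3 on the log2 scale, against -0.09 and -0.0048 over all tested genes.

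For 5 of the 9 genes, Sdc1, Prdm1, Derl3, Txndc5 and Ell2, the lowest library was control replicate 2 and the highest was agonist replicate 2, against 11% of all tested genes. Taken singly, control replicate 2 was lowest for 6 of the 9, against 26.1%, and agonist replicate 2 was highest for 7 of the 9, against 25.7%. Over all tested genes the upper tail was also longer in pool 2, with a 90th percentile of the within-pool log2 difference of 1.27 against 0.61 in pool 3. The part of a difference between the pool 2 libraries in these values was not tested. Summed over the 10 genes, the level was 56.3 and 78.2 CPM in the control and 116 and 67.1 CPM in the agonist libraries (pools 2 and 3).

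**Figure D3:**
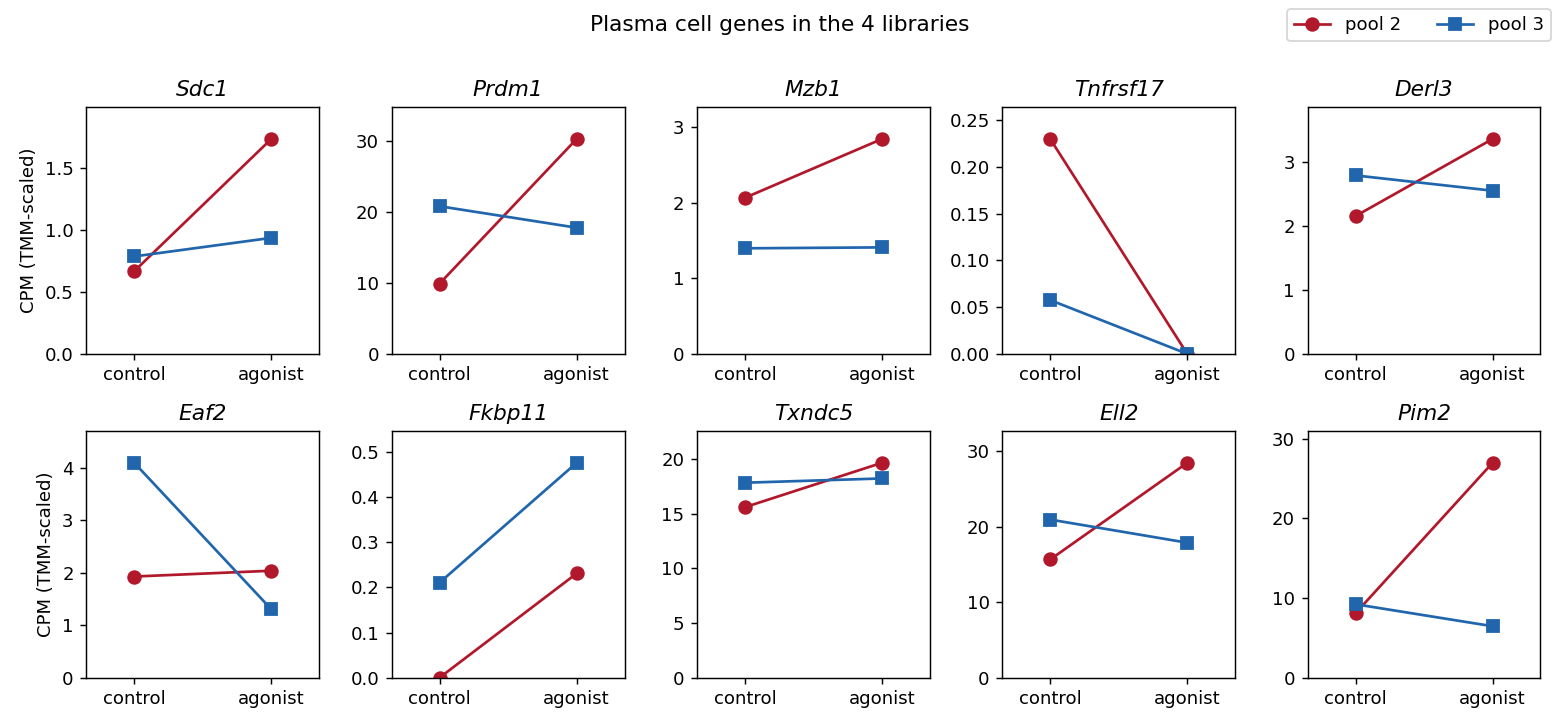
Level of each of the 10 genes in CPM, with lines joining the control and agonist wells of the same pool (circles, pool 2; squares, pool 3) and each axis starting at 0. The pool 2 lines of Sdc1, Prdm1, Ell2 and Pim2 climb, whereas those of pool 3 run nearly flat or downward.

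Prdm1 (chromosome 10, 44437177 to 44528501, GRCm38) encodes Blimp-1, the repressor that fixes plasma cell fate. It had 9.92 and 20.9 CPM in the control and 30.4 and 17.8 CPM in the agonist libraries of pools 2 and 3. Control replicate 2 was lowest and agonist replicate 2 highest, and the groups overlapped. The fitted log2 change, agonist over control, was 0.65 (SE 0.48, 95% interval -0.51 to 1.80), and ran from 0.21 without control replicate 2 to 1.36 without control replicate 3. Within pool 2 the log2 ratio of reads was 1.61 (95% counting interval 1.46 to 1.77), and within pool 3 it was -0.23 (-0.35 to -0.10). These intervals cover counting error only, since reads from amplified libraries are not independent molecules.

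The partners of Blimp-1 did not share 1 pattern. Xbp1 had 18.5 and 12.3 CPM in the control and 41.7 and 9.31 CPM in the agonist libraries, like Prdm1 higher in pool 2 and lower in pool 3. Irf4 went from 90.9 to 58.2 CPM in pool 2 and from 64.0 to 67.3 CPM in pool 3. Pax5, the B cell factor that Blimp-1 represses, had 8.98 and 3.16 CPM in the control and 4.56 and 1.98 CPM in the agonist libraries, with a fitted log2 change of -0.89 (SE 0.68). Bhlha15, which encodes the secretory cell factor MIST1, had 221 and 286 control reads and 170 and 53 agonist reads. Its 2 agonist libraries lay below both controls, as for 13.5% of all tested genes. The fit gave -1.33 (SE 0.66) on the log2 scale, with an edgeR adjusted p of 0.9999 and an unadjusted p of 0.0899. With the pool as a block, edgeR gave -1.57 (SE 0.56, unadjusted p = 0.0207, adjusted p = 0.9998). In that fit 1.84% of all tested genes were lower at an unadjusted p under 0.05. Of the 16 regulators and partners on this list, 15 were tested and 0 passed in either direction, with a median fitted log2 change of -0.02.

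Ell2 (chromosome 13, 75706757 to 75772364) encodes an elongation factor of RNA polymerase II that favours the secreted form of antibody mRNA in plasma cells. It had 15.6 and 20.9 CPM in the control and 28.4 and 17.9 CPM in the agonist libraries, and the groups overlapped. Its fitted log2 change was 0.34 (SE 0.37, 95% interval -0.56 to 1.24). It ran from 0.00026 without agonist replicate 2 to 0.65 without control replicate 3. The log2 ratio was 0.86 (0.73 to 0.99) in pool 2 and -0.23 (-0.35 to -0.10) in pool 3.

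Eaf2 (chromosome 16, 36792884 to 36875003) encodes a protein that binds ELL-family elongation factors. It had 1.93 and 4.10 CPM in the control and 2.04 and 1.31 CPM in the agonist libraries. Control replicate 3 stood above the other 3 libraries, and the groups overlapped. The fitted log2 change was -0.85 (SE 0.60, 95% interval -2.31 to 0.60). It ran from -1.29 without control replicate 2 to -0.13 without control replicate 3. Eaf2 was the only tested gene of the 9 with a negative fitted value. In pool 3 its log2 ratio was -1.65 (-2.05 to -1.26), and in pool 2 it was 0.08 (-0.35 to 0.51).

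Sdc1 (chromosome 12, 8771323 to 8793715) encodes syndecan-1 or CD138, the heparan sulphate proteoglycan used to sort plasma cells, which epithelial cells also carry. It had 29 and 41 control reads and 90 and 53 agonist reads. That is 0.666 and 0.785 CPM against 1.73 and 0.934 CPM, and both agonist libraries lay above both controls. For both agonist libraries above both controls the count was 3 of the 9 tested genes (Sdc1, Fkbp11 and Txndc5), against 11.4% of all tested genes. The opposite arrangement was found for 0 of 9, against 13.5%. Tnfrsf17, which was not tested, had that arrangement, with 10 and 3 control reads against 0 and 0. Fkbp11, with 0 and 11 control reads against 12 and 27, passed the filter only with its agonist libraries counted. These counts are therefore in part set by the filter. The fitted log2 change of Sdc1 was 0.87 (SE 0.67, 95% interval -0.75 to 2.49). It ran from 0.40 without agonist replicate 2 to 1.245 without agonist replicate 3. The epithelial markers Epcam and Krt18 were also low, at 24 to 56 and 12 to 15 reads per library. The whole list of 9 epithelial and stromal markers summed to 59.2 to 108 CPM.

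Tnfrsf17 (chromosome 16, 11313812 to 11320074) encodes BCMA, the receptor through which APRIL sustains plasma cells. Its control reads numbered 10 and 3, and both agonist libraries had 0. With a floor of 3 counts over the agonist group, and the 13 control reads taken as exact, the agonist level was at least 4.92-fold lower. With counting error in both wells, the upper bound of the log2 ratio in pool 2 was only -1.42, and in pool 3 the bound was 1.16, so a difference was not detectable at this depth in pool 3. Of the 13 reads 10 came from 1 library, and the gene did not pass the filter, so no test was made. The stretch upstream of its start is shown because the gene had no read in either agonist library. It is GRCm38.p6, chr16:11313559-11313808, plus strand, 5′ to 3′, from RefSeq, with the match to an interferon response type motif in capitals.
Tnfrsf17: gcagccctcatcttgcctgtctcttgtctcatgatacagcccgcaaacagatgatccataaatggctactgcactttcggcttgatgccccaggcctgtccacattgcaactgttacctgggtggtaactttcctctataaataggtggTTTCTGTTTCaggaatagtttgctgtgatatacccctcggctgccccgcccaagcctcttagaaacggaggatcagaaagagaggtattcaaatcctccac

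That motif, GAAA repeated after 2 bases of any kind, is of the kind that IRF factors and Blimp-1 bind, and it was read here on the opposite strand, 101 to 92 bases upstream of the start. Of 32851 windows of 250 bases upstream of RefSeq starts, 2.98% held it on either strand. The same motif was found before 1 of 3 listed starts of Txndc5. It overlapped no other searched motif, and a match of letters does not show that a factor binds there.

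Txndc5 (chromosome 13, 38500079 to 38528824) encodes a protein disulphide isomerase of the ER. It had 15.6 and 17.8 CPM in the control and 19.7 and 18.2 CPM in the agonist libraries, and the agonist libraries lay just above the controls. Its fitted log2 change was 0.18 (SE 0.31, 95% interval -0.57 to 0.93), the narrowest interval of the 9. It was 0.085 without control replicate 2 and 0.36 without control replicate 3. Of its 4492 exonic bases, 535 overlap other genes, among them the antisense gene Gm31834 with 0 to 33 reads per library, and the counts of the deposited tables cannot part them by strand.

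Derl3 (chromosome 10, 75893413 to 75895941) encodes derlin-3, which helps move misfolded proteins out of the ER. It had 94 and 146 control reads and 175 and 145 agonist reads, or 2.16 and 2.80 CPM against 3.37 and 2.56 CPM. The groups overlapped. The fit gave a log2 change of 0.26 (SE 0.49, 95% interval -0.92 to 1.44). It was 0.079 without agonist replicate 2, 0.082 without control replicate 2, 0.44 without agonist replicate 3 and 0.53 without control replicate 3. The log2 ratio was 0.64 (0.27 to 1.02) in pool 2 and -0.13 (-0.47 to 0.21) in pool 3.

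The upstream stretch of Derl3 is shown because it holds the element by which XBP1 and ATF6 are known to act on ER genes. It is GRCm38.p6, chr10:75893148-75893397, plus strand, 5′ to 3′, from RefSeq, with the ER stress response element in capitals.
Derl3: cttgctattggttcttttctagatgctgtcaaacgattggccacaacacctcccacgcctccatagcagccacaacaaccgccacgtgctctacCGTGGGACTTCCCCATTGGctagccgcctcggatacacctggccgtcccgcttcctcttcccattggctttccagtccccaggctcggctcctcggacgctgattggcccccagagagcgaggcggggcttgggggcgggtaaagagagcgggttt

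The element searched was CCAAT followed, after 9 bases of any kind, by CCACG, and it was found on the opposite strand 156 to 138 bases upstream of the start. It was present in 0.113% of the 32851 windows on either strand, and in Derl3 alone among the 9 genes searched, which left out Mzb1. Another ER element, TGACGTGG, lay 138 to 131 bases before 1 of 3 starts of Txndc5, within an annotated exon, and in 0.563% of all windows. The cyclic AMP element TGACGTCA lay 198 to 191 bases before the RefSeq start of Ell2, in a window that lies wholly within annotated exon, and in 1.55% of windows. The values of Derl3 and Xbp1 were both higher in the agonist well in pool 2 and lower in pool 3, where the counting interval of Derl3 held 0. That pattern was found in 22.5% of all tested genes. Atf6 had 122 and 95.5 CPM in the control and 117 and 99.9 CPM in the agonist libraries of pools 2 and 3. A link between these factors and the level of Derl3 was not tested.

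Mzb1 (chromosome 18, 35647267 to 35649367) encodes an ER cofactor of antibody assembly. It had 90 and 73 control reads and 148 and 80 agonist reads, or 2.07 and 1.40 CPM against 2.85 and 1.41 CPM. Pool 2 stood above pool 3 in both conditions. The fit gave a log2 change of 0.30 (SE 0.60, 95% interval -1.16 to 1.76). It ran from -0.26 without agonist replicate 2 to 0.71 without agonist replicate 3. Of its 1215 exonic bases, 695 are shared with a neighbouring gene on the same strand, so its reads can be undercounted.

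Fkbp11 (chromosome 15, 98724366 to 98728198) encodes an ER prolyl isomerase of secretory cells. Its control reads numbered 0 and 11, and its agonist reads 12 and 27. Both agonist libraries lay above both controls, at 12 against 11 reads in the closest pair. The log2 ratio was 1.18 (0.12 to 2.34) in pool 3. In pool 2, with 0 control reads, only a lower bound of 1.22 could be given. These bounds cover counting error only. The fitted log2 change was 1.70 (SE 1.58, 95% interval -2.13 to 5.53) and 2.51 (SE 1.64) with the pool as a block. With 1 library at 0 these fitted values depend on the prior count, and the value was 0.74 without control replicate 2, 1.09 without agonist replicate 3, 2.16 without agonist replicate 2 and 7.19 without control replicate 3.

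The wider secretory and folding machinery did not pass either. Of its 33 genes, 32 were tested and 0 passed, and the median fitted log2 change was -0.01. In both pools 8 were higher and 8 lower, against 21% and 27.8% of all tested genes. Herpud1, an ER degradation factor, had the smallest p, with a fitted log2 change of 0.93 (SE 0.40, unadjusted p = 0.0561). P4hb, a disulphide isomerase, followed with 0.77 (SE 0.38) and Pdia3, of the same family, with 1.05 (SE 0.53). Control replicate 2 was lowest and agonist replicate 2 highest in 10 of the 32, against 11% of all tested genes.

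Pim2 (chromosome X, 7878262 to 7883432) encodes a serine/threonine kinase that supports lymphocyte survival and acts downstream of BCMA in plasma cells. It had 8.09 and 9.21 CPM in the control and 27.0 and 6.45 CPM in the agonist libraries. Agonist replicate 2 stood above the other 3 libraries, agonist replicate 3 was the lowest, and the groups overlapped. Its fitted log2 change was 0.95 (SE 0.65, 95% interval -0.63 to 2.53). It ran from -0.39 without agonist replicate 2 to 1.63 without agonist replicate 3. The log2 ratio was 1.74 (1.57 to 1.91) in pool 2 and -0.51 (-0.71 to -0.31) in pool 3.

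The stretch upstream of Pim2 is shown because it holds the octamer ATGCAAAT, through which the B lineage factors OCT2 and OBF1 act, at 2 places. It is GRCm38.p6, chrX:7878056-7878205, plus strand, 5′ to 3′, from RefSeq, with the octamers in capitals, the first on the opposite strand.
Pim2: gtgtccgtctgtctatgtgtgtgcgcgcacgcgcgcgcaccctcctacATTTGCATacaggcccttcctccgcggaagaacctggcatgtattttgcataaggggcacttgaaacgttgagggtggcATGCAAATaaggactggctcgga

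The octamers lay 202 to 195 and 123 to 116 bases upstream of the start, and 1.6% of all windows held at least 1 on either strand. Pou2af1, the gene of OBF1, had 82.0 and 38.2 CPM in the control and 69.3 and 25.8 CPM in the agonist libraries, lower in both pools, with a fitted log2 change of -0.34 (SE 0.57). Of the 20 genes of plasma cell surface, homing and survival, 18 were tested and 0 passed. In both pools 12 of the 18 were lower and 1 was higher, against 27.8% and 21% of all tested genes. The median fitted log2 change was -0.16. Ccr9, the gut homing receptor, had the smallest p, with -0.49 (SE 0.31, unadjusted p = 0.158). Lax1, a lymphocyte adaptor, had -0.59 (SE 0.39), Il6ra, the IL-6 receptor, -0.73 (SE 0.58) and Cd27 -0.53 (SE 0.43).

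Of the 13 antibody genes 7 were lower and 3 higher in both agonist wells, against 27.8% and 21% of all tested genes. The other 3 differed in direction between the pools. Jchain, Igha and Igkc were among the 7 lower ones, and Ighg3, Iglc1 and Ighd were the 3 higher ones. Jchain had a log2 ratio of -1.63 (-1.73 to -1.53) in pool 2 and -1.96 (-2.05 to -1.88) in pool 3, and Igha one of -2.98 (-3.04 to -2.92) and -3.28 (-3.38 to -3.19). Igkc, the kappa constant region, had -1.32 and -0.77. In edgeR without the block 0 of the 13 antibody genes passed (adjusted p = 0.9999 for Jchain, Igha and Igkc), and with the block 1 did, Igha (edgeR adjusted p = 0.0140). DESeq2 without the block called Igha (adjusted p = 0.000755) and Jchain (adjusted p = 0.00563), both lower with the agonist. Ighg3, the IgG3 constant region, had a fitted log2 change of 0.89 (unadjusted p = 0.0294, edgeR adjusted p = 0.9999). Ighm had a fitted log2 change of -0.25 (SE 0.33).

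Jchain was also set against other plasma cell genes within each library. There were 100 Jchain reads for each Sdc1 read in control replicate 2 and 128 in control replicate 3, against 12.5 and 27.6 in agonist replicates 2 and 3. For Derl3 the same ratio was 31.0 and 35.9 in the control and 6.43 and 10.1 in the agonist libraries. For Mzb1 it was 32.4 and 71.9 against 7.61 and 18.3. Eaf2 gave 34.7 and 24.5 against 10.6 and 19.8, Txndc5 4.29 and 5.63 against 1.1 and 1.42, and Prdm1 6.74 and 4.82 against 0.714 and 1.45. In each of these genes both agonist libraries lay below both controls, with the closest values in Eaf2. All these ratios share the Jchain reads, which were lower in both agonist wells. Within a pool, a lower ratio therefore follows for any gene that was not lower to the same degree. No share over all genes was worked out, and Ell2 and Pim2 were not set against Jchain. Fkbp11 had 0 reads in control replicate 2 and Tnfrsf17 had 0 in both agonist libraries, which leaves no ratio there. The difference between the antibody genes and the other plasma cell genes was not tested.

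**Figure D4:**
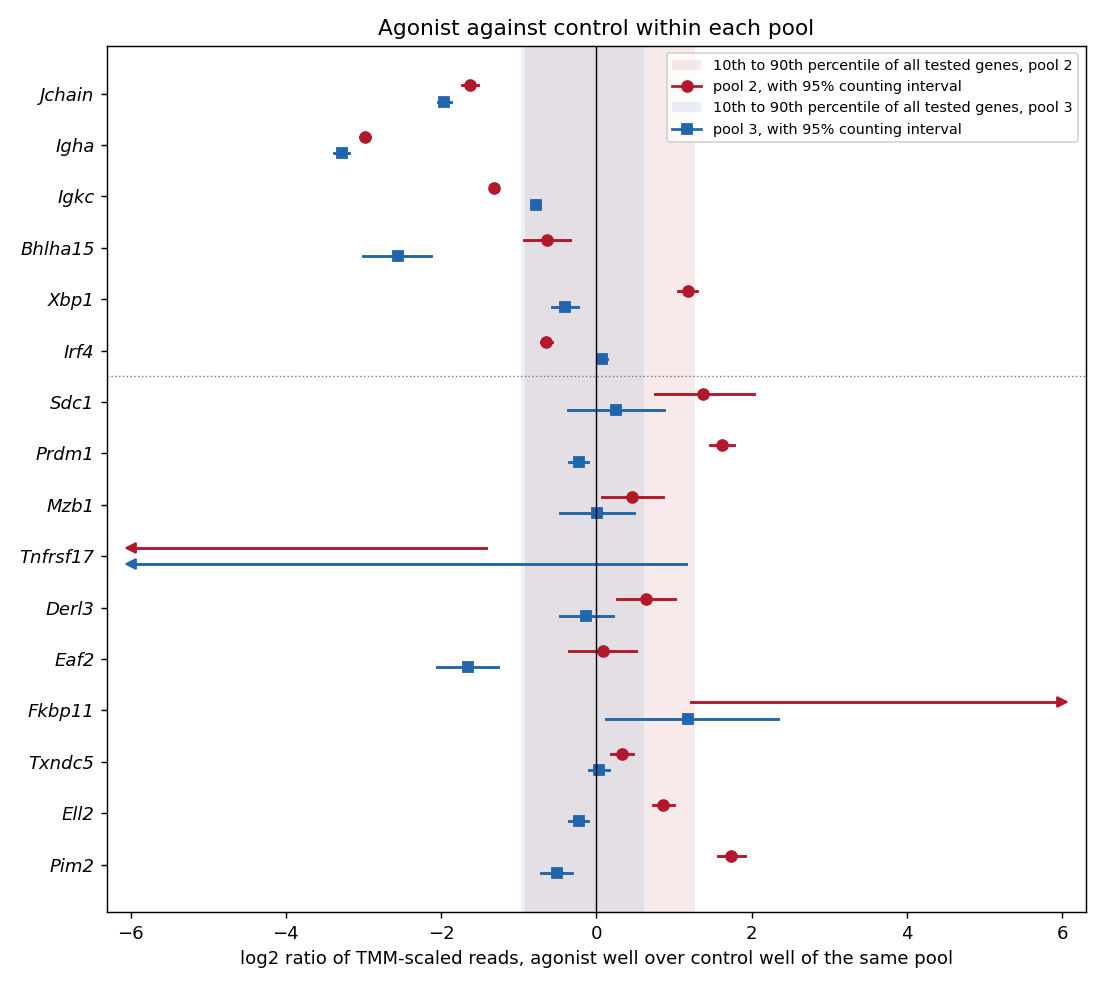
Log2 ratio of agonist over control reads within pool 2 (circles) and pool 3 (squares), with 95% counting intervals and arrows where a count of 0 leaves a side without bound, and the 10th to 90th percentile of all tested genes shaded. Jchain, Igha and Bhlha15 lie left of 0 in both pools, and Prdm1, Ell2 and Pim2 lie right of 0 in pool 2 and left of it in pool 3.

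Genes of other cell types in the wells gave the following values. Over all tested genes, 27.8% were lower and 21% higher in both pools. Of the 17 B cell identity genes that plasma cells silence, 17 were tested, 0 passed, 13 were lower and 1 was higher in both pools, with a median fitted log2 change of -0.32. Cd22 had -0.55 (SE 0.37) and Ms4a1, the gene of CD20, had -0.35 (SE 0.27). Of the 12 plasmacytoid dendritic cell markers 0 passed and 7 were lower in both pools (median -0.27). T cell markers had a median of -0.54, with 10 of 11 lower in both pools and 0 passed. Conventional dendritic cell markers had a median of 0.15, with 4 of 12 higher and 4 lower in both pools. The part of these cells in the values of Prdm1, Mzb1 and Pim2 was not tested.

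Between the pools, the plasma cell genes also did not pass the test. With the condition as a covariate, edgeR called 0 of the 9 genes, against 0.394% of all tested genes. Unadjusted, 0 of 9 had a p under 0.05, against 6.15% of all tested genes higher and 7.71% lower in pool 3. DESeq2 and limma-voom also called 0 of the 9, against 706 and 275 of all 18297 tested genes. With pool as the only term and 1 library left out, the log2 differences moved widely. Pim2 ran from -1.78 without control replicate 2 to -0.031 without agonist replicate 2. Prdm1 ran from -0.65 without control replicate 2 to 0.98 without agonist replicate 2. The comparison sets 1 pool against 1 pool, so the p-values reflect only how wells of the same cells vary. Pim2 had a log2 difference of pool 3 over pool 2 of -0.94 (SE 0.53, unadjusted p = 0.107) and Mzb1 one of -0.79 (SE 0.53, unadjusted p = 0.168). Fkbp11 had 2.37 (SE 1.64), on 0 to 27 reads per library. The other 6 lay between -0.34 for Sdc1 and 0.23 for Eaf2.

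Other genes of the lineage had these values. Xbp1 had a log2 difference of -1.38 (unadjusted p = 0.00888, edgeR adjusted p = 0.178) and Pou2af1 one of -1.26 (adjusted p = 0.0813). Pax5 had -1.36 (adjusted p = 0.172) and Igha had -1.42 (adjusted p = 0.0519). Of the 13 antibody genes 1 passed, Ighd, the IgD constant region of naive B cells, lower in pool 3 (log2 difference -1.63, edgeR adjusted p = 0.0339). Of the 15 tested regulators, the 32 tested secretory genes and the 17 B cell identity genes, 0 passed.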

How the data were processed

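RNA-seq of 4 libraries was used. Each table deposited by the authors holds raw read counts per gene, not normalized. The submitters' processing notes name STAR 2.7, HTSeq 0.11.1 and the build GRCm38 (mm10), and no strand setting. Lines of the tables without a gene stayed out of library sizes and tests, and reads outside genes made up 15.96% to 19.99% of a library's reads. GENCODE M21 gave coordinates and merged exon lengths.

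Genes were filtered with edgeR's default (minimum count 10), scaled by TMM and compared with the two-sided quasi-likelihood test of edgeR 4.0.16 in R 4.3.3, group as the only term, with Benjamini-Hochberg adjustment over 18297 genes and a threshold of 0.05. SE came from the fold change and F. limma 3.58.1 and DESeq2 1.42.0 were alternatives. Other alternatives changed the scaling, the filter and the libraries. Within-pool intervals are exact binomial 95% intervals of read counts. Within-pool medians and directions use log2 CPM with a prior count of 2. The fits were tested on simulated data.

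Each pool was split over a pair of wells, per the labels' protocols, and libraries with the same number in their titles were taken as wells of 1 pool. The libraries with the same number deviated together (Pearson r = 0.288 across 18297 genes). The labels do not say how many mice gave each pool, so p-values measure the spread between these samples, which may in part be technical.

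The genes named are the 10, the antibody genes, Xbp1, Irf4 and Pax5, paralogs, and list members with the smallest p. The members and lists were chosen with earlier results of these data known. RefSeq (GRCm38.p6) windows of 9 of the 10 genes were searched, and Mzb1, on chromosome 18, was left out of the search. Motifs were sought in the 250 bases before each start on both strands.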

Additional observations from a re-analysis of the deposited data

Results flagged for a closer look

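Prdm1, Ell2 and Pim2 had opposite directions in the 2 pools, with counting intervals clear of 0 on both sides. The log2 ratio of agonist over control reads was 1.61 in pool 2 and -0.23 in pool 3 for Prdm1, 0.86 and -0.23 for Ell2, and 1.74 and -0.51 for Pim2. The difference between the pools was not tested, since each pool has 1 well per condition. Over all tested genes, 22.5% were higher in pool 2 and lower in pool 3.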

How the results depend on the processing

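In the agonist comparison 0 of the 10 genes were called under all 14 alternatives, but not every fit tested all 10. Tnfrsf17 did not pass the main filter, and a minimum count of 50 also left out Sdc1 and Fkbp11. Over all genes the count of 0 became 1 with the pool as a block (replicate block), 9 with no filter, 7 in DESeq2, 6 in DESeq2 with the replicate block, and 0 to 2 with 1 library less. The block changed no call among the 9 tested genes. Of the single values 2 turned sign, both without agonist replicate 2: leaving out each library gave -0.26 to 0.71 for Mzb1 and -0.39 to 1.63 for Pim2. Between the pools the count over all genes was 72, and it became 5 with total counts only, 600 with no filter, 8 with a minimum count of 50, 5 with pool as the only term, 706 in DESeq2, 275 in limma-voom, and, with 1 library less and pool as the only term, 841 without control replicate 2, 1 without control replicate 3, 1575 without agonist replicate 2 and 10 without agonist replicate 3. In those 4 fits 0 to 1 of the 10 genes were called. Values near 0 turned sign: Derl3 with other size factors (0.0026) and in DESeq2 (0.0034), Txndc5 with total counts only (-0.040) and a minimum count of 50 (-0.013), and Prdm1 with pool as the only term (-0.060). Those 4 fits gave -1.002 to 0.39 for Sdc1, -0.65 to 0.98 for Prdm1 (-0.22 without control replicate 3), -0.33 to 0.33 for Derl3 (0.023 without agonist replicate 3), -0.62 to 1.05 for Eaf2, -0.12 to 0.23 for Txndc5 and -0.55 to 0.33 for Ell2. The cause of these changes was not tested. Reads of Tnfrsf17 and Fkbp11 were few, at 0 to 10 and 0 to 27 per library, so their counting intervals were wide.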

Other observations

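Close relatives of the plasma cell genes were mostly more abundant in these wells, per kilobase of merged exons. Sdc4, the syndecan of many cell types, had a mean of 28.3 CPM per kb over the 4 libraries and Sdc3 one of 2.88, against 0.270 for Sdc1. Derl2 had 19.2 and Derl1 14.3, against 1.36 for Derl3. Ell had 15.5 and Ell3 0.0268, against 2.11 for Ell2, Pim1 had 9.03 and Pim3 1.58, against 4.53 for Pim2, and Eaf1 had 2.90, against 0.536 for Eaf2.

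These relatives did not pass the test either, and Ell3 was not tested. Eaf1 had 6.52 and 12.8 CPM in the control and 31.2 and 13.3 CPM in the agonist libraries of pools 2 and 3, with a fitted log2 change of 1.20 (SE 0.54, edgeR adjusted p = 0.9999), positive where that of Eaf2 was negative. Derl1 went from 32.7 to 84.0 CPM in pool 2 and from 36.6 to 37.0 CPM in pool 3. Pim1 went from 37.0 to 25.2 CPM in pool 2, where Pim2 went from 8.09 to 27.0 CPM, and from 29.7 to 29.5 CPM in pool 3. Of 10 cell cycle genes of dividing cells such as plasmablasts, 10 were tested and 0 passed. In both pools 3 were higher and 3 lower, against 21% and 27.8% of all tested genes.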
